A study of Mus musculus with 6 samples.

Results

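The thick ascending limb of the loop of Henle was followed in whole mouse kidneys through 8 genes that mark it or serve its salt transport: Umod, Slc12a1, Kcnj1, Bsnd, Casr, Ptger3, Tmem207 and Ppp1r1b. These 8 genes were matched by symbol among the 54146 genes of the deposited count files, and all 8 were among the 17308 genes that passed the filter on low counts. Poly A+ RNA was sequenced from whole kidneys of B6C3F1/J mice at 12 weeks of age (postnatal day 84), in 3 libraries labelled Tfam f/f and 3 labelled KspCre Tfam f/f. Both groups carry a floxed Tfam gene on both alleles. The Tfam product coats the mitochondrial genome and is needed to transcribe it. The controls lack Cre, and the other group carries a Cre transgene driven by the promoter of Ksp-cadherin, which is active in kidney tubule epithelium, so cells of other kinds in the same kidney are not targeted. Each library is whole kidney, in which fewer cells of a type and less RNA per cell cannot be told apart.

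The targeted gene went against the labels. Tfam stood at 30.3, 33.6 and 23.2 CPM (counts per 1000000, normalized for library composition) in the Tfam f/f-labelled libraries and at 63.1, 63.5 and 61.4 in the KspCre Tfam f/f-labelled ones, a log2 fold change of 1.11 (SE 0.14, edgeR adjusted p = 0.00107). Each direction below is therefore between labels, not between known genotypes, and "higher" or "lower" without a group named means in the KspCre Tfam f/f-labelled libraries. Total gene counts ran from 19024208 to 34821537 in the Tfam f/f-labelled libraries and from 30348281 to 48899266 in the KspCre Tfam f/f-labelled ones. The summed level of 12 tubular injury genes was 4059 to 15810 CPM in the former and 1027 to 1129 in the latter, and that of 12 macrophage genes was 198.3 to 637.7 against 142.2 to 157.3. The summed level of 16 proximal tubule genes was 4284 to 18950 CPM against 56410 to 58850. Single genes weighed heavily in the proximal tubule and injury sums. The most abundant proximal tubule gene gave 25990 to 26750 CPM in the KspCre Tfam f/f-labelled libraries. Among the injury genes, the most abundant gave 2399 to 10590 CPM in the Tfam f/f-labelled ones. No gene of these 3 lists was at 0 in all libraries, and the part of these differences in the results below was not tested.

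The thick ascending limb reabsorbs salt without water. The cotransporter NKCC2, encoded by Slc12a1, brings sodium, potassium and chloride in from the urine, the channel ROMK, encoded by Kcnj1, returns potassium to the urine, and chloride leaves toward the blood by a path that needs barttin, encoded by Bsnd. The calcium-sensing receptor (Casr) and the prostaglandin E2 receptor EP3 (Ptger3) restrain this transport, and uromodulin (Umod) is secreted from the same cells into the urine. Slc12a1 and Umod are the defining markers of the segment, while Kcnj1 and Bsnd are also expressed further along the distal nephron. Both defining markers were abundant in all 6 libraries.

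Upstream sequences are shown for 3 members, Umod and Tmem207, which were higher, and Ptger3, which was lower, because these members parted from Slc12a1 in opposite directions. Each is the 250 bases before the RefSeq gene start (build GRCm38.p6, gene strand, 5′ to 3′), and 6 of the 8 members had an entry in that table. The Umod window lies at chr7:119479263-119479512 on the minus strand, that of Tmem207 at chr16:26526772-26527021 on the minus strand and that of Ptger3 at chr3:157566626-157566875 on the plus strand. Capitals mark matches to 1 of 3 motifs searched on both strands, which do not overlap here. These are the HNF1 partial-site motif GTTAAT, the estrogen-related receptor partial-site motif AAGGTCA and the TATA box TATAAA.
Umod: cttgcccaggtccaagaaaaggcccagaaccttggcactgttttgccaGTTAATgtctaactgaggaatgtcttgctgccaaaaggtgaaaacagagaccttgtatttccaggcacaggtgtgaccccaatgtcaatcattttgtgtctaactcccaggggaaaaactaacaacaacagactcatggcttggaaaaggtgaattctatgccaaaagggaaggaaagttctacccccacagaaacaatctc
Tmem207: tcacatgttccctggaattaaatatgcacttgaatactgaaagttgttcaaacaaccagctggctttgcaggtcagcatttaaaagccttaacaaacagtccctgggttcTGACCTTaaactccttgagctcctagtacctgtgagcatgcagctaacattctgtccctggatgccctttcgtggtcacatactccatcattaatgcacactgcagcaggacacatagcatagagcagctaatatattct
Ptger3: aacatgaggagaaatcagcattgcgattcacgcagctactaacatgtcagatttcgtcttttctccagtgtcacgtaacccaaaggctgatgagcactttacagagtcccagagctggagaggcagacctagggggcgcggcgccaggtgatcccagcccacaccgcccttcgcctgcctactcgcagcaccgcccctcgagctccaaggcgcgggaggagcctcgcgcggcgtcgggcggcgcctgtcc

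The upstream window of Umod held 1 HNF1 partial-site motif, which began 202 bases before the start. Of 27025 promoters of the same length, 6.52% held this motif. The window of Tmem207 held 1 estrogen-related receptor partial-site motif on the opposite strand, at 140 bases before the start, a motif found in 4.05% of promoters. None of the 3 motifs was found in the Ptger3 window, and the TATA box, held by 13.0% of promoters, was found in none of the 6 member windows. RefSeq starts can differ from the gene spans given below, which come from GENCODE M21. The Kcnj1 window (chr9:32393735-32393984) lies inside its span, and those of Umod, Slc12a1 and Casr overlap the starts of theirs. The window of Ptger3 was richer in G and C (62.0%) than those of Umod (45.2%) and Tmem207 (43.6%). A match is a description of letters, not evidence of a bound site.

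The 8 genes did not move together. Umod and Tmem207 were higher, Ptger3 and Ppp1r1b were lower, and Slc12a1, Kcnj1, Bsnd and Casr did not pass the test (edgeR, adjusted p below 0.05). The background is wide: 46.2% of all tested genes were called, 21.3% higher and 24.9% lower, so 4 of 8 members called is near the share of all genes. When libraries were scaled by total counts alone, 16.5% of the called genes were higher, against 46.1% with the composition factors used here. That scaling put the median of all tested genes at a log2 fold change of -0.46, against -0.03, and the same 2 members were called higher and the same 2 lower. The median log2 fold change of the 8 members was 0.52. In 7 of the 8 members the 2 groups did not overlap, and this held for 61.9% of all tested genes.

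**Figure D1:**
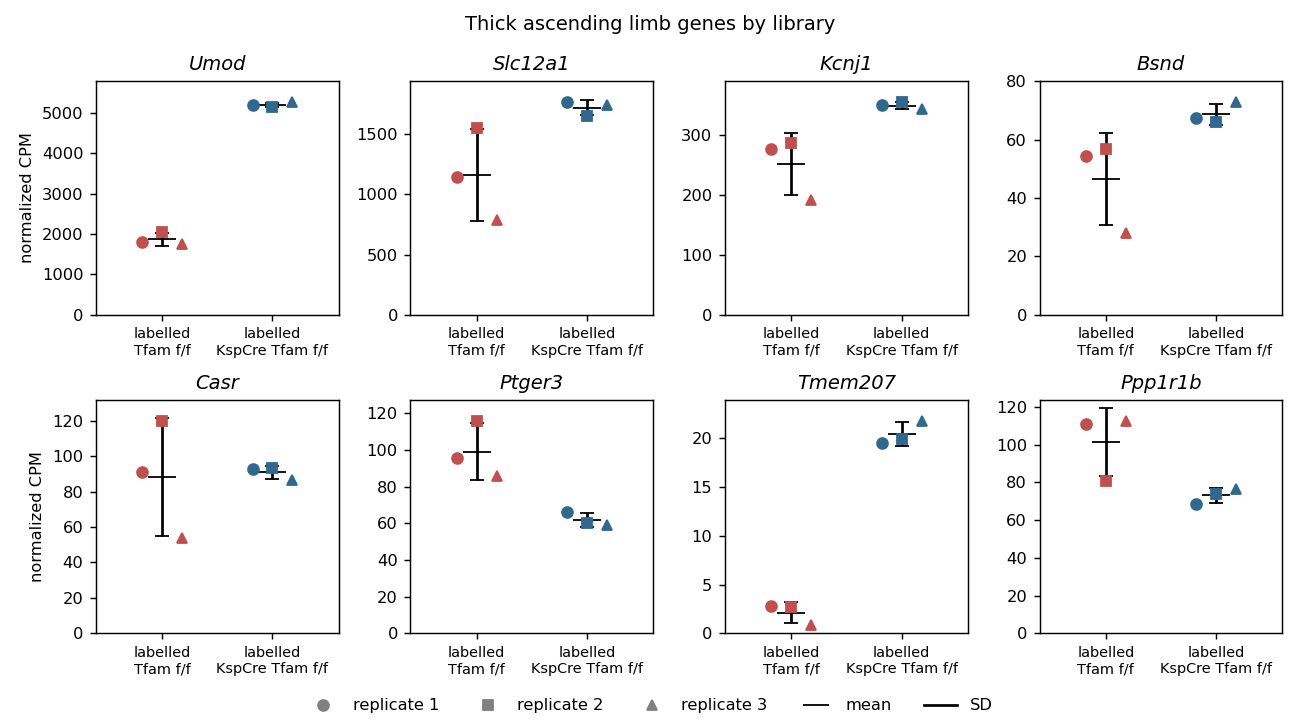
Normalized CPM (vertical axis, from 0, a separate scale per gene) of the 8 genes in the 3 Tfam f/f-labelled libraries (red) and the 3 labelled KspCre Tfam f/f (blue), with the marker shape giving the replicate and black lines the mean and SD. The groups are apart for every gene except Casr, and the red points are more widely spread than the blue ones.

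Umod, the secreted marker, was the most abundant member. The gene (ENSMUSG00000030963.6) lies on chromosome 7 from 119462711 to 119479282 in mm10, on the minus strand. Umod stood at 1804, 2055 and 1759 CPM in Tfam f/f-labelled replicates 1, 2 and 3 and at 5187, 5156 and 5263 CPM in KspCre Tfam f/f-labelled replicates 1, 2 and 3. All 3 KspCre Tfam f/f-labelled libraries lay above the highest of the others. Umod was 2.78-fold higher (log2 fold change 1.47, SE 0.24, 95% interval 0.92 to 2.02, edgeR adjusted p = 0.00283). Umod reads made up 0.205%, 0.224% and 0.22% of all gene counts in the former libraries and 0.452%, 0.439% and 0.455% in the latter. Umod was also the least variable member among the Tfam f/f-labelled libraries, with a coefficient of variation (SD over mean) of 8.53%.

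Slc12a1, the apical cotransporter and the target of loop diuretics (ENSMUSG00000027202.12, chromosome 2, 125152505 to 125230002), did not pass the test. Its levels were 1143, 1549 and 788.7 CPM in Tfam f/f-labelled replicates 1, 2 and 3 and 1762, 1645 and 1743 CPM in KspCre Tfam f/f-labelled replicates 1, 2 and 3. The groups did not overlap, but replicate 2 of the Tfam f/f-labelled libraries came within reach of the lowest of the others. The log2 fold change was 0.56 (SE 0.27, edgeR adjusted p = 0.124), and its 95% interval of -0.07 to 1.2 included 0. Slc12a1 passed when Tfam f/f-labelled replicate 2 was left out (log2 fold change 0.85, adjusted p = 0.0209) and with DESeq2 (0.58, adjusted p = 0.0394). Over all alternatives the adjusted p ran from 0.0209 to 0.572.

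Kcnj1, the apical potassium channel ROMK (ENSMUSG00000041248.9, chromosome 9, 32372493 to 32399197), had 276.2, 287.0 and 191.7 CPM in Tfam f/f-labelled replicates 1, 2 and 3 and 350.3, 354.9 and 343.0 CPM in KspCre Tfam f/f-labelled replicates 1, 2 and 3. The lowest of the latter stood above the highest of the former, and Tfam f/f-labelled replicate 3 was well below the other two. Its log2 fold change of 0.47 (SE 0.18, 95% interval 0.06 to 0.88) missed the threshold after adjustment (edgeR adjusted p = 0.0598). Kcnj1 passed with DESeq2 (adjusted p = 0.022), with limma voom (0.0486) and when Tfam f/f-labelled replicate 2 (log2 fold change 0.60, adjusted p = 0.0319) or replicate 3 (0.31, 0.0271) was left out, in a range of 0.022 to 0.749 over the alternatives.

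Bsnd, which encodes the chloride channel subunit barttin (ENSMUSG00000025418.7, chromosome 4, 106483456 to 106492283), had 54.6, 56.7 and 28.2 CPM in Tfam f/f-labelled replicates 1, 2 and 3 and 67.5, 66.0 and 72.8 CPM in KspCre Tfam f/f-labelled replicates 1, 2 and 3. As with Kcnj1, replicate 3 of the Tfam f/f-labelled libraries was the lowest and the groups did not overlap. The log2 fold change was 0.56 (SE 0.24, 95% interval 0.00 to 1.12, edgeR adjusted p = 0.0907). Without Tfam f/f-labelled replicate 3 it was 0.30 and passed (adjusted p = 0.0233), in a range of 0.0233 to 0.523 over the alternatives.

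Casr, the receptor that senses calcium at the basolateral side (ENSMUSG00000051980.13, chromosome 16, 36493696 to 36562141), was the member whose groups overlapped. Its levels were 90.7, 119.9 and 53.7 CPM in Tfam f/f-labelled replicates 1, 2 and 3 and 92.7, 93.5 and 86.6 CPM in KspCre Tfam f/f-labelled replicates 1, 2 and 3. The Tfam f/f-labelled libraries lay on both sides of the others. Its log2 fold change was 0.04 (SE 0.25, edgeR adjusted p = 0.9), and its 95% interval of -0.55 to 0.64 leaves room for a change of either sign. The sign itself changed with upper quartile scaling (-0.03), with total counts only (-0.36) and without Tfam f/f-labelled replicate 3 (-0.22).

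Ptger3, which encodes the prostaglandin E2 receptor EP3 (ENSMUSG00000040016.16, chromosome 3, 157566892 to 157645888), was lower. It had 95.6, 115.9 and 85.8 CPM in Tfam f/f-labelled replicates 1, 2 and 3 and 65.9, 60.4 and 59.1 CPM in KspCre Tfam f/f-labelled replicates 1, 2 and 3. Every library labelled Tfam f/f lay above all of the others. The log2 fold change was -0.68 (SE 0.13, 95% interval -0.97 to -0.39, edgeR adjusted p = 0.00485), a 1.6-fold difference.

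Tmem207, a small transmembrane protein gene, had the largest fold change of the 8. The gene (ENSMUSG00000091972.2) lies on the minus strand of chromosome 16 from 26503656 to 26526769. The claudin gene Cldn16 ends 20890 bases away on the plus strand. Tmem207 had 77, 103 and 20 counts in Tfam f/f-labelled replicates 1, 2 and 3 and 831, 824 and 571 counts in KspCre Tfam f/f-labelled replicates 1, 2 and 3. These are 2.83, 2.71 and 0.84 CPM against 19.5, 19.9 and 21.8 CPM, and no library of one group came near the other group. Tmem207 was 9.40-fold higher (log2 fold change 3.23, SE 0.36, 95% interval 2.39 to 4.08, edgeR adjusted p = 0.000796). It was the least abundant and the most variable member among the Tfam f/f-labelled libraries, with a coefficient of variation of 52.5%.

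Ppp1r1b encodes DARPP-32, which inhibits protein phosphatase 1 when phosphorylated by the cyclic AMP-dependent kinase (ENSMUSG00000061718.12, chromosome 11, 98348404 to 98357796). It had 110.9, 80.7 and 112.6 CPM in Tfam f/f-labelled replicates 1, 2 and 3 and 68.6, 73.9 and 76.7 CPM in KspCre Tfam f/f-labelled replicates 1, 2 and 3. The groups did not overlap, but Tfam f/f-labelled replicate 2 lay just above the highest of the others. Its log2 fold change was -0.47 (SE 0.14, 95% interval -0.80 to -0.14, edgeR adjusted p = 0.028). Ppp1r1b no longer passed without Tfam f/f-labelled replicate 1 (adjusted p = 0.0866) and without KspCre Tfam f/f-labelled replicate 1, 2 or 3 (0.11, 0.0879 and 0.0746), in a range of 0.00181 to 0.11 over the alternatives.

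**Figure D2:**
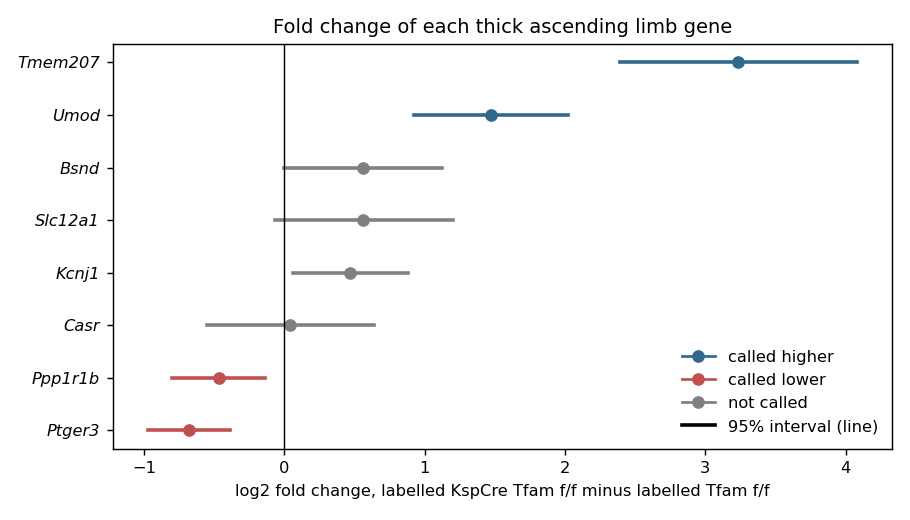
Log2 fold change (horizontal axis, KspCre Tfam f/f-labelled libraries minus the Tfam f/f-labelled ones) of the 8 genes with its 95% interval as a line, coloured by whether the gene passed the edgeR test. Tmem207 and Umod lie to the right of 0, Ppp1r1b and Ptger3 to the left, and the intervals of Slc12a1 and Casr cross 0.

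Variation among libraries was unequal between the groups. The coefficient of variation of the 8 members was 8.53% to 52.5% in the Tfam f/f-labelled libraries and 1.06% to 5.95% in the KspCre Tfam f/f-labelled ones. Of the 3 Tfam f/f-labelled libraries, replicate 3 was the lowest for 7 members, with Ppp1r1b the exception, and replicate 2 was the highest for 6. In Tfam f/f-labelled replicates 1, 2 and 3 the summed level of the 12 tubular injury genes was 7613, 4059 and 15810 CPM and that of the macrophage genes was 300.4, 198.3 and 637.7 CPM. Replicate 3, lowest for most members, was thus the highest for both of these lists, and the part of either in the members' levels was not tested. That library was also the lowest of its group for the summed proximal tubule genes (11470, 18950 and 4284 CPM). The same held for the summed distal convoluted and connecting tubule (2827, 3716 and 2115 CPM), principal cell (1217, 1048 and 805.7 CPM) and thin limb genes (1076, 945.7 and 746.9 CPM).

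The order of the levels was compared per kilobase of exon (CPM per kb), since the genes differ in length. In the KspCre Tfam f/f-labelled libraries, Umod came first at 1883 ± 19.9 CPM per kb (SD, n = 3), the 11th of 17299 tested genes with a length. Slc12a1 followed at 297.9 ± 10.9 and Kcnj1 at 104.8 ± 1.80. Bsnd and Ppp1r1b, at 24.96 ± 1.30 and 24.95 ± 1.41, did not differ beyond their spread. Casr (19.3), Ptger3 (10.9) and Tmem207 (7.59) came last, each apart from its neighbour. In the Tfam f/f-labelled libraries the first 3 places were the same, at 677.7 ± 57.8, 201.4 ± 66.0 and 75.5 ± 15.7 CPM per kb, and Ppp1r1b came next at 34.6 ± 6.13. Casr, Ptger3 and Bsnd overlapped there at 18.7 ± 7.04, 17.4 ± 2.70 and 16.9 ± 5.76, and Tmem207 was far below them at 0.79 ± 0.415.

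Dividing each gene by Slc12a1 within the same library removes the scaling between libraries and gives its level relative to the cotransporter transcript in whole kidney. Since Kcnj1 and Bsnd are also expressed beyond the segment, the ratios do not describe the segment alone. A ratio also moves with Slc12a1, whose own log2 fold change was 0.56 without passing, while that of Casr was 0.04. Umod and Tmem207 gained on Slc12a1, Kcnj1 and Bsnd overlapped between groups, and Casr, Ptger3 and Ppp1r1b lost ground to it. For every 100 counts of Slc12a1 there were 158, 133 and 223 counts of Umod in Tfam f/f-labelled replicates 1, 2 and 3 and 294, 313 and 302 in KspCre Tfam f/f-labelled replicates 1, 2 and 3. The mean log2 ratio of Umod to Slc12a1 was 0.74 ± 0.38 against 1.6 ± 0.05 (SD, n = 3 each, exact permutation p = 0.1), a 1.81-fold difference. With 3 against 3 libraries the two-sided exact permutation test cannot give a p below 0.1, so none of the 7 ratios could pass a threshold of 0.05, and adjustment cannot lower them. Tmem207 had 0.249, 0.176 and 0.109 counts per 100 of Slc12a1 against 1.11, 1.21 and 1.25, a 7.06-fold difference (exact permutation p = 0.1).

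Ptger3 had 8.36, 7.48 and 10.9 counts per 100 of Slc12a1 in the Tfam f/f-labelled libraries and 3.74, 3.67 and 3.39 in the KspCre Tfam f/f-labelled ones, a 2.44-fold lower ratio in the latter (exact permutation p = 0.1). Ppp1r1b had 9.70, 5.21 and 14.3 against 3.89, 4.49 and 4.4, and was 2.11-fold lower (exact permutation p = 0.1). In the Tfam f/f-labelled libraries its ratio was highest in replicate 3, where Slc12a1 itself was lowest. Casr, whose level overlapped between groups, had 7.94, 7.74 and 6.81 counts per 100 of Slc12a1 against 5.26, 5.68 and 4.97, without overlap (1.41-fold lower, exact permutation p = 0.1). Kcnj1 had 24.2, 18.5 and 24.3 against 19.9, 21.6 and 19.7 (exact permutation p = 0.4), and Bsnd had 4.77, 3.66 and 3.58 against 3.83, 4.01 and 4.18 (exact permutation p = 1.0). Of the 7 ratios, those of the potassium channel and of the chloride channel subunit to the cotransporter were thus the ones that overlapped between the groups. This depends on Slc12a1 as the denominator: of the summed level of the 8 members, Kcnj1 made up 7.72%, 6.72% and 6.35% against 4.6%, 4.75% and 4.47%, without overlap, while Bsnd made up 1.53%, 1.33% and 0.934% against 0.886%, 0.884% and 0.95%, with overlap.

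**Figure D3:**
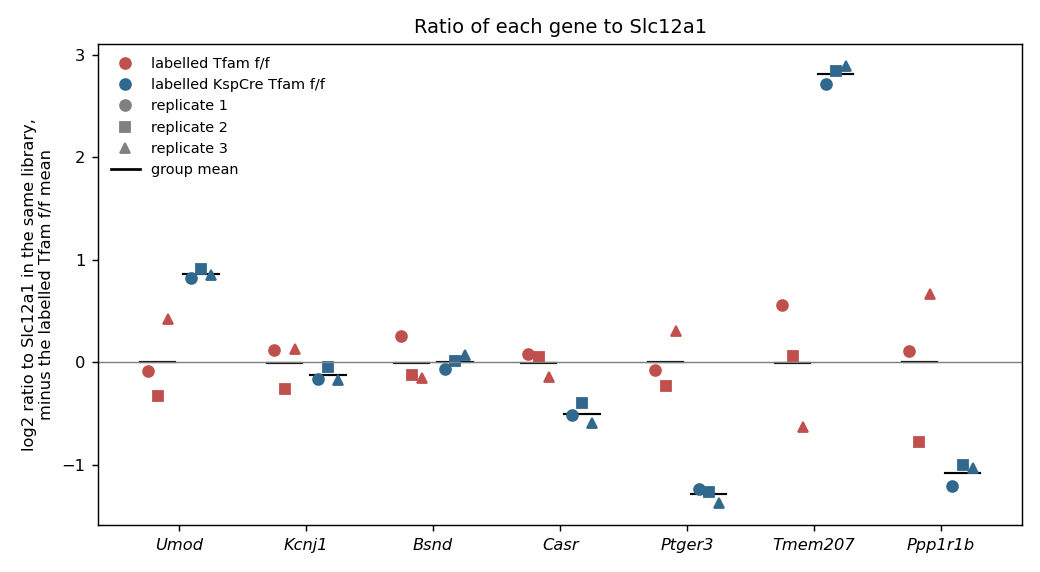
Log2 ratio of each gene's count to that of Slc12a1 in the same library (vertical axis), set to 0 at the mean of the Tfam f/f-labelled libraries. Points are libraries and black lines group means. Kcnj1 and Bsnd overlap, Umod and Tmem207 lie higher in the KspCre Tfam f/f-labelled libraries, and Casr, Ptger3 and Ppp1r1b lie lower.

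The summed level of the 8 members was 3578, 4267 and 3020 CPM in Tfam f/f-labelled replicates 1, 2 and 3 and 7614, 7470 and 7666 CPM in KspCre Tfam f/f-labelled replicates 1, 2 and 3, a 2.09-fold difference (means 3622 ± 625 and 7583 ± 102, SD, n = 3 each, exact permutation p = 0.1, the smallest this design allows). Umod carried most of it. It made up 50.4%, 48.2% and 58.2% of the sum in the former and 68.1%, 69.0% and 68.7% in the latter. Without Umod the log2 fold of the sum was 0.44, against 1.07 with it. Slc12a1 made up 26.1% to 36.3% of the sum in the Tfam f/f-labelled libraries and 22.0% to 23.1% in the others.

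The other transport genes of the segment also held calls in both directions. Of 8 partners, 2 were higher, 2 were lower and 4 did not pass. This is near the share of all tested genes, of which 46.2% were called, 21.3% higher and 24.9% lower. Kcnj16, a subunit of the basolateral potassium channel, was 2.32-fold higher (edgeR adjusted p = 0.0117), and Slc9a3, the apical sodium-proton exchanger, which is also abundant in the proximal tubule, was 2.11-fold higher (adjusted p = 0.0173). The 4 calls in this list were sensitive to single libraries: without Tfam f/f-labelled replicate 1 none passed, without KspCre Tfam f/f-labelled replicate 1, 2 or 3 none passed as lower, and without replicate 2 or 3 of the latter 1 passed as higher. Kcnj16 had an adjusted p of 0.0575 without Tfam f/f-labelled replicate 1. Slc9a3 had 0.0625 without that library and 0.0547 and 0.0544 without KspCre Tfam f/f-labelled replicates 2 and 3. The adjusted p ran from 5.79e-05 to 0.0575 for Kcnj16 and 0.000751 to 0.0625 for Slc9a3 over the alternatives.

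Of 5 claudins, tight junction proteins that form or restrict paths between the cells, 2 were higher and 3 lower. All 5 passed, beside 46.2% of all tested genes. Cldn16, next to Tmem207 in the genome and a part of the calcium and magnesium path, had 3.56, 3.53 and 4.87 CPM in Tfam f/f-labelled replicates 1, 2 and 3 and 11.95, 11.35 and 11.52 CPM in KspCre Tfam f/f-labelled replicates 1, 2 and 3 (2.92-fold higher, edgeR adjusted p = 0.000655). Labelled Tfam f/f replicate 3, lowest for Tmem207, was the highest of its group for Cldn16. Cldn19, the partner of claudin 16 in the same junctions, moved the other way, with 131.9, 90.7 and 99.0 CPM against 43.8, 41.5 and 49.1 (2.39-fold lower, adjusted p = 0.00105). Cldn14, which blocks the claudin 16 path when calcium is high, had 26, 23 and 33 counts in the Tfam f/f-labelled libraries and 4, 1 and 0 in the KspCre Tfam f/f-labelled ones. Its fitted log2 fold change of -4.32 (adjusted p = 0.00249) was -5.69 without KspCre Tfam f/f-labelled replicate 1, so its size rests on a handful of counts.

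A further list held 11 kinases, ubiquitin ligase parts and trafficking proteins that act on the cotransporter directly or through other proteins. Of these, 5 were higher, 2 were lower and 4 did not pass, beside 21.3% higher and 24.9% lower among all tested genes. The balance turned with the scaling, to 3 higher and 5 lower with total counts only, and was 5 higher and 4 lower with upper quartile scaling and with DESeq2. Stk39, which encodes the kinase SPAK that phosphorylates NKCC2, had 133.9, 112.9 and 150.1 CPM in Tfam f/f-labelled replicates 1, 2 and 3 and 46.6, 48.1 and 42.0 CPM in KspCre Tfam f/f-labelled replicates 1, 2 and 3 (2.90-fold lower, edgeR adjusted p = 0.000234). Oxsr1, another kinase gene of this list, named after its values were seen, did not pass. Its mean was 64.7 CPM in the Tfam f/f-labelled libraries and 63.1 in the others (log2 fold change -0.04, edgeR adjusted p = 0.778). Maged2, needed for the cotransporter to reach the membrane, was 2.26-fold lower (adjusted p = 0.0011). Ppp1r1a, a relative of Ppp1r1b that also inhibits protein phosphatase 1, was 3.26-fold higher (adjusted p = 0.00575), opposite in sign to Ppp1r1b. Its levels were 67.4, 58.6 and 25.1 CPM in the Tfam f/f-labelled libraries and 158.1, 171.6 and 163.7 in the others.

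Receptors and cyclic AMP genes went both ways, with 3 of 8 tested genes higher and 2 lower, beside 21.3% and 24.9% of all tested genes. Ptger2 did not pass the filter on low counts. Gcgr, the glucagon receptor, was 3.12-fold higher (edgeR adjusted p = 0.00103) and Pth1r, the parathyroid hormone receptor, 2.84-fold higher (adjusted p = 0.00243), the latter being a gene that the proximal tubule also expresses. Ptger4, another prostaglandin E2 receptor, had 7.09, 6.67 and 14.6 CPM against 3.71, 2.88 and 3.82 CPM (2.72-fold lower, adjusted p = 0.00984), the same direction as Ptger3. Among the Tfam f/f-labelled libraries Ptger4 was lowest in replicate 2 and highest in replicate 3. The summed tubular injury and macrophage genes had that order too, and their part in the level of Ptger4 was not tested. Ptger1, a further prostaglandin E2 receptor, named after its values were seen, went the other way, with 5.36, 4.61 and 1.85 CPM against 11.9, 8.48 and 14.6 CPM (2.93-fold higher, adjusted p = 0.0131).

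Among 10 other markers of the segment, 5 were higher and none lower, beside 21.3% and 24.9% of all tested genes. The 5 of 10 called is near the 46.2% called over all tested genes (6 of the 10 had an unadjusted edgeR p under 0.05, and DESeq2 also called none lower). Wfdc15b was 4.83-fold higher (edgeR adjusted p = 0.000182), Enox1 3.96-fold (adjusted p = 0.000837) and the transcription factor gene Irx1 2.47-fold (adjusted p = 0.00246). Egf, the epidermal growth factor precursor, which the distal convoluted tubule also makes, was named after its values were seen. It had 134.4, 312.2 and 39.0 CPM in Tfam f/f-labelled replicates 1, 2 and 3 and 2598, 2779 and 2626 CPM in KspCre Tfam f/f-labelled replicates 1, 2 and 3. The log2 fold change was 4.04 (SE 0.70, adjusted p = 0.00387), and 4.96 without Tfam f/f-labelled replicate 2. Of 4 macula densa genes, expressed by a plaque of cells at the end of the segment, Avpr1a (3.40-fold, adjusted p = 0.00491) and Nos1 (2.12-fold, adjusted p = 0.0116) were higher, Ptgs2, the inducible cyclooxygenase, was 3.82-fold lower (adjusted p = 0.00704), and 1 did not pass.

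**Figure D4:**
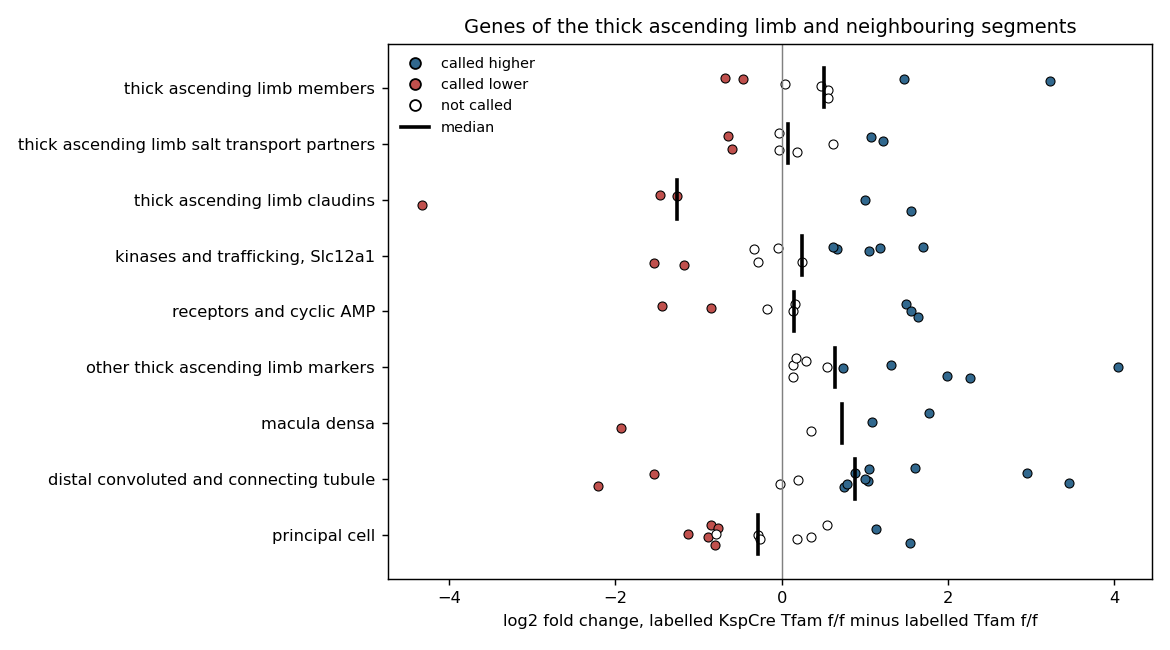
Log2 fold change (horizontal axis) of each tested gene in the 8 thick ascending limb members, 6 further lists of the segment and 2 neighbouring segments, with filled points for called genes and a black bar for each list's median. Points lie on both sides of 0 in each list except that of other thick ascending limb markers, whose called genes are all higher.

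Set beside the neighbouring segments, the 8 members had 2 genes higher, 2 lower and a median log2 fold change of 0.52, 13 distal convoluted and connecting tubule genes had 9 higher, 2 lower and a median of 0.88, and 13 principal cell genes had 2 higher, 5 lower and a median of -0.29. Beyond these, 7 thin limb genes had 3 higher, 2 lower and a median of 1.12. For 16 proximal tubule genes the counts were 12 higher and 0 lower, with a median of 1.66. Those 12 were 3 to 15 with 1 library left out. The median of all tested genes was -0.03, and 46.2% of them were called, 21.3% higher and 24.9% lower. These differences between lists were not tested. The 9 distal genes called higher were 5 without KspCre Tfam f/f-labelled replicate 1 and 5 with total counts only. The 2 principal cell genes called higher were 1 without Tfam f/f-labelled replicate 1 and without KspCre Tfam f/f-labelled replicate 1 or 3. With no filter on low counts and with the replicate number as a block, 1 was called higher as well. The distal list shares Wnk1 and Stk39 with the kinase list, and the principal cell list shares Avpr2 with the receptor list.

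Genes with profiles over the 6 libraries close to each member were found among 11947 genes by the root mean square difference of centred log2 CPM. Samd10 and Trim8 lay at 0.0227 and 0.0322 from Ppp1r1b, Immt and Crocc at 0.0206 and 0.0316 from Kcnj1, and Unc45b and Gbe1 at 0.0342 and 0.0411 from Slc12a1. Timd2 lay at 0.0556 from Umod, and Gpihbp1 and Plekha1 at 0.0426 and 0.0761 from Ptger3. Atp5k lay at 0.0524 from Bsnd, and Dchs1 and Akr1b7 at 0.0595 and 0.078 from Casr. Tmem207 had no near neighbour of that kind, its nearest being Slc4a1 at 0.137 and C8a at 0.146. All these profiles share the same libraries and the same 2 groups.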

How the data were processed

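The deposited values are whole-number read counts per gene, one file per library, without normalization. The submitters' processing notes list FastQC, Trim Galore, STAR version 2.4.1d, HTSeq version 0.11.0 and build mm10, with no order. For the strand setting and annotation, nothing is given in the sources used. Summary lines without a gene, 16.0% to 20.4% of the counts in each file, were left out. The low-count filter was filterByExpr (minimum count 10, minimum total 15), and edgeR 4.0.16 (R 4.3.3) tested the remaining genes (TMM factors, robust quasi-likelihood test, Benjamini-Hochberg adjustment over all 17308 genes, called below 0.05). CPM used the same factors. Log2 fold changes are KspCre Tfam f/f-labelled libraries over Tfam f/f-labelled ones, with SE from the F statistic. Ratios used counts plus 0.5 and two-sided exact permutation tests. Positions and exon lengths came from GENCODE M21. Genes that overlap a member held at most 0.0489% as many counts as it.

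The members and lists were chosen with earlier results of these data known. The rule for named genes took the 8 members, Tfam, up to 3 called genes with the smallest p in each list, and for each member the 2 nearest profiles whose mean log2 CPM was 2 or more. Some genes that this rule takes are not reported here. Lists of other cell types are given as sums, counts or medians. Of 7 thin limb genes among them, 3 were higher and 2 lower. The latter count was 1 without Tfam f/f-labelled replicate 1 or any 1 KspCre Tfam f/f-labelled library. Over all tested genes, 21.3% were called higher and 24.9% lower. DESeq2 1.42.0 and limma 3.58.1 (voom), other scalings and filters, thinning, the replicate number as a block and leaving out each library were alternatives. The edgeR procedure was tested on simulated counts that gave each gene the same dispersion in both groups. That test therefore does not cover the unequal spread of the groups seen here. The labels do not say whether each library is another animal; p-values therefore reflect library-to-library spread alone, and this may be technical. Within groups, chi-square per degree of freedom was 7.09 to 164 between libraries, so none was a copy of another in its group. This check cannot show whether libraries came from different animals.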

Additional observations from a re-analysis of the deposited data

How the results depend on the processing

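The calls of Umod (log2 fold change 1.05 to 1.57), Tmem207 (2.84 to 3.46) and Ptger3 (-1.10 to -0.53) kept direction and threshold in all 16 alternatives, and Ppp1r1b in 12. The members called higher were 2, but 4 with DESeq2 and 3 with limma voom, and 2 to 4 with 1 library left out; those called lower were 2, and 1 to 2 with 1 library left out. Over all genes, 3690 were called higher and 4310 lower, 1680 and 8519 with total counts only, and 2276 to 4652 and 2822 to 4942 with 1 library left out. Casr changed sign without passing, at -0.03 with upper quartile scaling, -0.36 with total counts only and -0.22 to 0.35 with 1 library left out (-0.22 without Tfam f/f-labelled replicate 3). The difference in the Bsnd to Slc12a1 log2 ratio was 0.01, -0.45 against the sum of the other members (where Kcnj1 went from -0.12 to -0.62, Casr from -0.5 to -0.98 and Ptger3 from -1.29 to -1.78), and -0.06 to 0.15 with 1 library left out, with -0.04, -0.06 and -0.02 without Tfam f/f-labelled replicates 2 and 3 and KspCre Tfam f/f-labelled replicate 3. The log2 fold of the summed level was 1.07, 0.65 with total counts only, 0.44 without Umod and 0.95 to 1.2 with 1 library left out. The cause of these changes was not tested. With the replicate number as a block, 3227 genes were higher and 3586 lower, and the member calls were 2 and 2, with adjusted p of 0.0118 for Umod, 0.00186 for Tmem207, 0.00785 for Ptger3 and 0.0431 for Ppp1r1b. Same-numbered libraries did not deviate together (correlations -0.174, -0.0702 and -0.0708), so the numbers were not taken as pairs, and no library correlated best with its own number. Of 384 recomputed list counts, 355 stayed within 1.5 times the main count and 29 did not. Depth limits Tmem207, at 20 counts in 1 library, and Cldn14. It also limits other named genes. Enox1 had 18, 23 and 13 counts and Nos1 28, 60 and 23 in Tfam f/f-labelled replicates 1, 2 and 3. Ptgs2 had 24, 13 and 16 counts in KspCre Tfam f/f-labelled replicates 1, 2 and 3.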
